A study of Mus musculus with 10 samples.

Results

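The cyclins, kinases and inhibitors that govern entry into the cell cycle from G1 were followed in mouse ventricle after aldosterone, an adrenal hormone and ligand of the mineralocorticoid receptor. The set held 10 genes of the 20144 genes that the array probes could be named for: the D cyclins Ccnd1, Ccnd2 and Ccnd3, the kinases Cdk4 and Cdk6, the inhibitors Cdkn1a, Cdkn1b, Cdkn1c and Cdkn2c, and Rb1. They were chosen by name, and all 14 probes whose accession maps to them were taken. Ccnd1 had been chosen because it differed between these same groups, so its values are a description and carry no test.

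The study gave male mice aldosterone or no treatment over 7 days and compared ventricle RNA of 5 aldosterone hearts with that of 5 untreated hearts, each labelled as a separate mouse. All 10 animals bear the label Ctrl, and the labels give no dose, route, age or strain. The Cy5 channel of each 2-colour Agilent array held a heart, and the Cy3 channel a single reference pooled from liver, brain, heart, kidney and spleen. Scanner files of 4 aldosterone and 5 untreated arrays were analysed, and aldosterone heart 4 entered through the authors' deposited value table alone.

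D cyclins are made in response to growth signals and bind the kinases CDK4 and CDK6. The active kinases phosphorylate the retinoblastoma protein, which then releases E2F factors that switch on genes for DNA synthesis. INK4 proteins such as p18, from Cdkn2c, bind the kinases directly, whereas the CIP/KIP proteins p21, p27 and p57, from Cdkn1a, Cdkn1b and Cdkn1c, act on whole cyclin and kinase complexes. Adult cardiomyocytes have mostly left the cell cycle, while fibroblasts, endothelial cells and immune cells of the heart can still enter it.

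Values below are log2 ratios of a heart to the pooled reference, and differences are aldosterone minus untreated in log2 units. Of the 39429 probes of an array, 64.3% to 70.9% gave a Cy5 signal well above background. Of the 14 probes of the set, 13 were kept by the filter on dim probes, well above background on all 9 arrays, and they covered 9 of the 10 genes. All 13 cardiomyocyte markers examined were measured, the ventricular light chain Myl2 among them. In whole ventricle, fewer cells of a type and less RNA per cell cannot be told apart.

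The promoter windows of inhibitor genes whose means differed most are shown because 2 starts of Cdkn1a and 1 of the 2 starts of Cdkn2c carry different known elements. Windows run from 250 bases before to 50 bases after a gene start, come from RefSeq on GRCm38.p6, and are written 5′ to 3′ on the gene's strand. Capitals mark, on either strand, a pair of ACATGT separated by 4 bases (the paired core of a p53 element, with the bases between also in capitals), the GC box GGGCGG, or AGAACA (a half-site of steroid receptors). The p53 letters were chosen after the first window had been read. The table does not tie a window to a transcript or to a probe.
Cdkn1a, chr17:29090729-29091028, plus strand: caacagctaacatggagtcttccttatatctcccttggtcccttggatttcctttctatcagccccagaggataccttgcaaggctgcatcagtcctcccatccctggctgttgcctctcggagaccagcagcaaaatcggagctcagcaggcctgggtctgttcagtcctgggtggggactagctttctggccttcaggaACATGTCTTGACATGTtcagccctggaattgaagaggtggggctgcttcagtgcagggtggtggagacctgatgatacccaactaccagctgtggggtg
Cdkn1a, chr17:29093519-29093818, plus strand: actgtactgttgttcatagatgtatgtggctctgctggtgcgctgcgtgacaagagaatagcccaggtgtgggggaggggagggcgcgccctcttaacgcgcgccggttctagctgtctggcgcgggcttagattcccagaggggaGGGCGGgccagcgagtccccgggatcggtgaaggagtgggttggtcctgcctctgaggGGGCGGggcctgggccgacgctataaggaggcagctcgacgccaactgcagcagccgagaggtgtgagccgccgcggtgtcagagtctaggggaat
Cdkn2c, chr4:109666707-109667006, minus strand: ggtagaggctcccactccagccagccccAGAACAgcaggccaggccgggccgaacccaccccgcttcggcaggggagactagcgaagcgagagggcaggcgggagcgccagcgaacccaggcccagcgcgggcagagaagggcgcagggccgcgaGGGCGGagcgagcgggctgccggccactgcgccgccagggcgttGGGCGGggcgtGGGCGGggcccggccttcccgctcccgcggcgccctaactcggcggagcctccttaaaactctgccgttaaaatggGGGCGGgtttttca

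The first Cdkn1a window held the paired p53 core, which 4 of all 32851 windows in the table hold, or 0.0122%. The second Cdkn1a window held 2 GC boxes and the Cdkn2c window shown 4, where 35.7% of all windows hold at least 1. The other Cdkn2c window, chr4:109665323-109665622 on the minus strand, held none of the letters searched. AGAACA stood in the Cdkn2c window shown, in that of Cdk6 and in no other of the 9 windows that the set's genes have, against 18.97% of all windows. The E2F letters TTTNNCGC stood only in the Cdk6 window among these 9, against 5.17% of all windows. These matches describe the letters in the windows and not binding. Ccnd1, Ccnd2, Cdkn1c and Rb1 have no window in the table.

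Among the D cyclins, Ccnd1 was higher in every aldosterone heart than in any untreated heart, Ccnd2 was lower on average with overlapping groups, and Ccnd3 had nearly equal means. Ccnd1, the D cyclin most often linked to growth factor signals, had log2 ratios of -0.86, -0.61, -0.30 and -0.30 in aldosterone hearts 1, 2, 3 and 5. In untreated hearts 1 to 5 its log2 ratios were -1.64, -1.31, -1.40, -1.43 and -1.33. The lowest aldosterone heart stood 0.45 above the highest untreated heart. The means were -0.52 ± 0.27 in aldosterone hearts (SD, n = 4) and -1.42 ± 0.13 in untreated hearts (SD, n = 5), a difference of 0.90 or 1.87-fold.

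The raw signals of the Ccnd1 spot show which channel carried the difference. The Cy5 signal of the heart was 2178.5 to 4687.5 units on the aldosterone arrays and 1309 to 2078 units on the untreated arrays. The Cy3 signal of the reference was 1825 to 2000 units on the aldosterone arrays and 1780 to 2076 units on the untreated arrays. The reference ranges of the groups overlapped, while the heart ranges did not. Within the 4 slides, which each held both groups, Ccnd1 differed by 0.62, 0.78, 1.12 and 1.03. Aldosterone arrays lay at position 2 of a slide and untreated arrays at position 1 or 4, so the effects of group and of position cannot be told apart.

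In the authors' deposited value table, which holds all 10 hearts, the Ccnd1 log2 ratio was -0.68, -0.44, -0.10, -0.35 and -0.12 in aldosterone hearts 1 to 5. In untreated hearts 1 to 5 it was -1.48, -1.29, -1.19, -1.23 and -1.12. Aldosterone heart 4, for which no scanner file was analysed, lay among the other aldosterone hearts and above all untreated hearts. The means there were -0.34 ± 0.24 in aldosterone hearts and -1.26 ± 0.13 in untreated hearts (SD, n = 5 each), a difference of 0.92. As Ccnd1 was chosen for its difference between these groups, aldosterone heart 4 is no independent check.

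**Figure D1:**
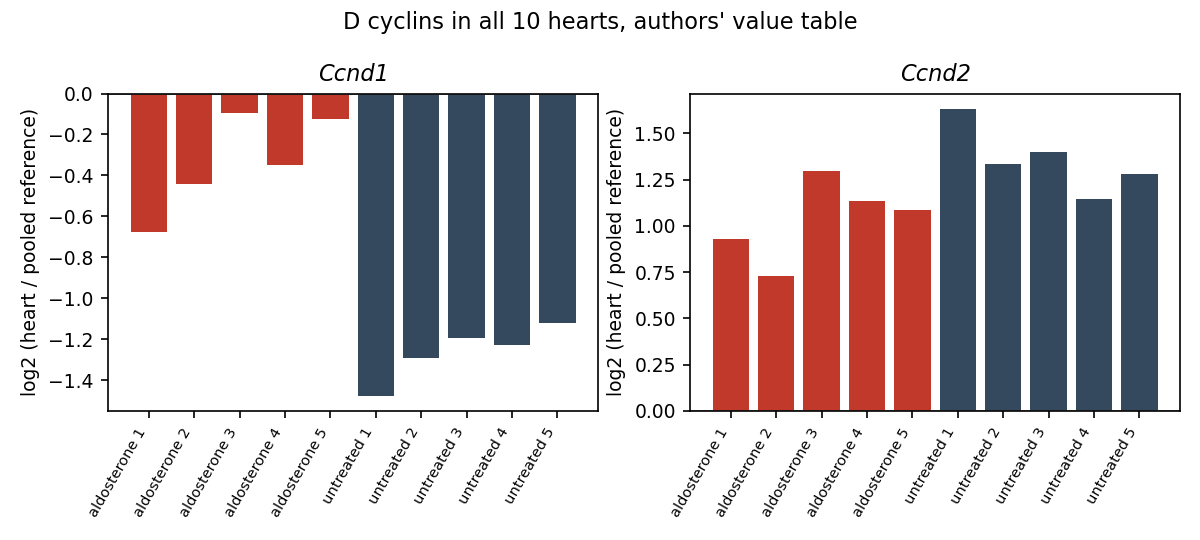
Log2 ratio of heart to pooled reference for Ccnd1 and Ccnd2 in each of the 10 hearts of the authors' deposited value table, drawn as bars from 0, aldosterone hearts (red) left of untreated hearts (blue). Ccnd1 lies between -0.68 and -0.10 in all 5 aldosterone hearts and at -1.12 or below in all 5 untreated hearts, whereas the Ccnd2 bars of the groups overlap.

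Ccnd2, a D cyclin that serves growth in several tissues, had log2 ratios of 0.65, 0.52, 1.00 and 0.82 in aldosterone hearts 1, 2, 3 and 5. In untreated hearts 1 to 5 they were 1.34, 1.04, 1.15, 0.82 and 1.04. Aldosterone hearts 1 and 2 lay below all untreated hearts. Aldosterone heart 5 lay level with untreated heart 4, the lowest of its group, and aldosterone heart 3 lay above it. Both lay below the other untreated hearts. Ccnd2 differed by -0.33 (SE 0.12, 95% interval -0.58 to -0.07), with an adjusted p of 0.692 in limma, so the difference did not pass. It was below 0 on slides 1, 2 and 4 (-0.54, -0.63 and -0.22) and above 0 on slide 3 (0.18). The value table of 10 hearts gave -0.32 (limma adjusted p = 0.538). There aldosterone heart 5, at 1.09, lay below untreated heart 4, at 1.14. Aldosterone heart 3, at 1.30, lay above untreated hearts 4 and 5.

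Ccnd3, the third D cyclin, was measured by a probe for NM_001081636 and another for NM_007632, and neither differed between the groups beyond the spread of the hearts. The NM_001081636 probe had log2 ratios of -0.88, -0.70, -0.16 and -0.21 in aldosterone hearts 1, 2, 3 and 5, and of -0.29, -0.76, -0.21, -0.52 and -0.63 in untreated hearts 1 to 5. Both groups spanned most of the same range, with low and high hearts in each. The difference was -0.01 (SE 0.16, 95% interval -0.37 to 0.36, limma adjusted p of 1.00) for this probe. For the NM_007632 probe it was 0.00 in size (SE 0.13, 95% interval -0.29 to 0.29). The interval of the NM_001081636 probe includes a difference of the size seen for Ccnd2, and that of the NM_007632 probe ends short of it. Within slides 1 to 4 the NM_001081636 probe differed by -0.36, -0.49, 0.36 and 0.42, so the sign turned between slides.

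The spread of Ccnd3 within the groups ran opposite to that of the 12 corticosteroid receptor targets examined, a list that includes Fkbp5, Tsc22d3, Sgk1 and Per1. The mean log2 ratio of that list was -0.54, -0.51, -0.88 and -1.02 in aldosterone hearts 1, 2, 3 and 5, and -0.91, -0.52, -1.08, -0.9996 and -0.73 in untreated hearts 1 to 5. Aldosterone hearts 1 and 2 and untreated hearts 2 and 5 had the 4 highest list means and the 4 lowest Ccnd3 values of the NM_001081636 probe. This order was seen in the data and is given with no test. It does not follow the treatment, as hearts of both groups stand at both ends. Over all kept probes, deviations from the group means correlated at 0.34 between aldosterone heart 2 and each of untreated hearts 2 and 5. They correlated at 0.47 between aldosterone heart 5 and untreated heart 3. Within the aldosterone group they correlated at 0.01 between hearts 1 and 2 and at -0.63 between hearts 1 and 5. Removing the group mean by itself lowers correlations within a group. Some hearts of different groups thus deviated alike over many other probes too, and a link particular to Ccnd3 and this list was not tested.

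**Figure D2:**
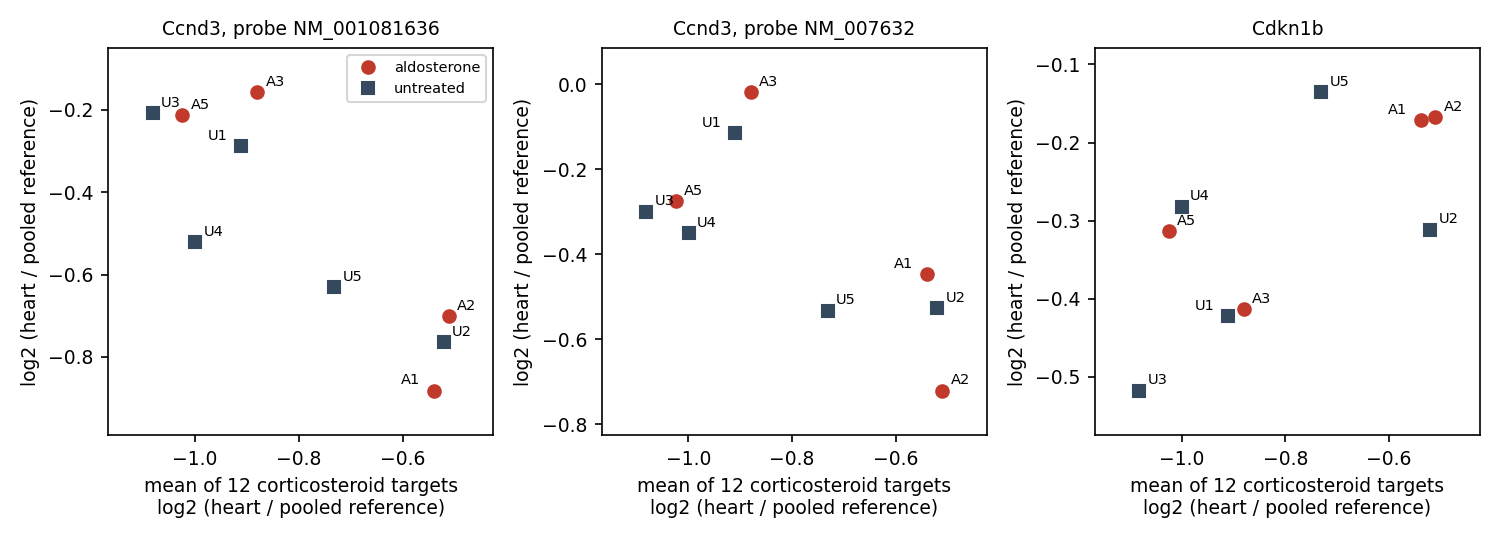
Log2 ratios of the Ccnd3 probes and of Cdkn1b against the mean log2 ratio of 12 corticosteroid receptor targets on the same array, for aldosterone hearts (A, red circles) and untreated hearts (U, blue squares), 9 arrays. The hearts with the highest list means (A1, A2, U2 and U5) have the lowest values of the Ccnd3 NM_001081636 probe, and each end of the horizontal axis holds hearts of both groups. Deviations over all kept probes also correlated between some of these hearts, at 0.34 for A2 with U2 and with U5.

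Of the G1 kinases, Cdk4 stood close to 0 difference on all 3 of its probes and Cdk6 could not be measured. The brightest Cdk4 probe (A_55_P2163143) had log2 ratios of -0.29, -0.51, -0.38 and -0.30 in aldosterone hearts 1, 2, 3 and 5, and of -0.35, -0.44, -0.39, -0.40 and -0.35 in untreated hearts 1 to 5. The untreated hearts lay inside the range of the aldosterone hearts. The differences of the Cdk4 probes were 0.02 (95% interval -0.12 to 0.15), 0.07 (-0.08 to 0.22) and -0.02 (-0.15 to 0.11), so the data bound any change of this kinase gene more tightly than that of most others in the set. The adjusted p-values in limma were all 0.997 or above. Cdk6, the partner kinase best known from blood cells, was not well above background in Cy5 on any of the 9 arrays. Its Cy5 signal was 65.5 to 72 units on the aldosterone arrays and 64 to 71 units on the untreated arrays, while the local background had array medians of 57 to 59 units, and it was not tested.

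Among the CIP/KIP inhibitors, Cdkn1a was higher on average and Cdkn1c lower on average in aldosterone hearts, and neither passed adjustment over all probes. Cdkn1a encodes p21, an inhibitor induced by p53 and by many stress signals. Its NM_007669 probe, printed 10 times on each array, had log2 ratios of -0.03, 0.17, 0.18 and 0.02 in aldosterone hearts 1, 2, 3 and 5. In untreated hearts 1 to 5 they were -0.21, 0.01, -0.03, -0.43 and -0.23. The groups overlapped only through aldosterone heart 1, which lay below untreated heart 2. The means were 0.08 ± 0.10 in aldosterone hearts (SD, n = 4) and -0.18 ± 0.17 in untreated hearts (SD, n = 5). The difference was 0.26 (SE 0.09, 95% interval 0.06 to 0.47, limma adjusted p = 0.694).

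The repeated spots give the noise between spots of an array. Within an array, the Cdkn1a spots of this probe had a median SD of 0.0485, against an SD of 0.196 between the 9 array means, which also holds labelling and hybridisation noise and the difference between the groups. The difference was above 0 within all 4 slides (0.07, 0.20, 0.61 and 0.25) and was 0.25 in the value table of 10 hearts (limma adjusted p = 0.654). There aldosterone hearts 1 and 4, at 0.34 and 0.24, lay below untreated hearts 2 and 3, each at 0.41. The other Cdkn1a probe, for NM_001111099, was dim, with Cy5 signals of 90 to 102 units on the aldosterone arrays and 84 to 101.5 units on the untreated arrays. It differed by -0.04 (95% interval -0.21 to 0.13), and its sign turned with the processing, as given in the closing section. The offset added to both channels compresses the ratio of such a dim probe toward 0.

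Cdkn1b encodes p27, the inhibitor that holds resting cells out of the cycle. Its log2 ratios were -0.17, -0.17, -0.41 and -0.31 in aldosterone hearts 1, 2, 3 and 5, and -0.42, -0.31, -0.52, -0.28 and -0.14 in untreated hearts 1 to 5. Every aldosterone heart lay inside the range of the untreated hearts. The difference was 0.07 (95% interval -0.12 to 0.26), above 0 on slides 1 and 2 (0.20 and 0.35) and below 0 on slides 3 and 4 (-0.13 and -0.18). The sign on each slide was opposite to that of Ccnd3.

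Cdkn1c encodes p57 and lies in an imprinted cluster. Its log2 ratios were 0.61, 0.35, 0.36 and 0.22 in aldosterone hearts 1, 2, 3 and 5, and 0.59, 0.65, 0.58, 0.55 and 0.60 in untreated hearts 1 to 5. The untreated hearts lay close together, 3 aldosterone hearts lay below all of them, and aldosterone heart 1 lay among them. The means were 0.39 ± 0.17 in aldosterone hearts (SD, n = 4) and 0.59 ± 0.03 in untreated hearts (SD, n = 5). The difference was -0.21 (SE 0.08, 95% interval -0.37 to -0.04, limma adjusted p = 0.714).

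The Cdkn1c difference was at or below 0 on every slide (-0.01, -0.23, -0.19 and -0.38). In the value table of 10 hearts it was -0.21 (limma adjusted p = 0.520), and aldosterone heart 4 stood there at 0.73, below the untreated hearts, which ran from 0.89 to 0.94. Of 9 measured genes among the imprinted neighbours and growth regulators listed with Cdkn1c, 4 were higher and 5 lower, with a median difference of -0.01. In that list the lipase-like imprinted gene Mest differed by 0.43 (SE 0.12), the growth factor gene Igf2 by -0.19 (SE 0.09) and the imprinted gene Dlk1 by -0.07 (SE 0.09), and none passed (limma adjusted p = 0.473, 0.815 and 0.999).

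Cdkn2c encodes p18, the INK4 inhibitor of the set. Its log2 ratios were -0.35, -0.35, -0.60 and -0.41 in aldosterone hearts 1, 2, 3 and 5, and -0.67, -0.73, -0.60, -0.57 and -0.75 in untreated hearts 1 to 5. Aldosterone hearts 1, 2 and 5 lay above all untreated hearts, and aldosterone heart 3 lay among them. The difference was 0.24 (SE 0.07, 95% interval 0.08 to 0.39, limma adjusted p = 0.530). It was above 0 on slides 1, 2 and 4 (0.36, 0.24 and 0.34) and -0.03 on slide 3. In the value table of 10 hearts it was 0.25 (limma adjusted p = 0.567), with aldosterone heart 4 at -0.44, inside the untreated range of -0.60 to -0.27.

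The other INK4 genes Cdkn2a, Cdkn2b and Cdkn2d differed by 0.14 (SE 0.10), 0.09 (SE 0.08) and 0.06 (SE 0.13). None passed, with limma adjusted p-values of 0.965, 0.994 and 0.999. The Cdkn2a and Cdkn2b probes were dim, with mean log2 signals over both channels of 6.30 and 6.54, beside 6.31 for the dim Cdkn1a probe. The value table of 10 hearts gave 0.92 for Cdkn2a, 0.27 for Cdkn2b and -0.0075 for Cdkn2d, so the sign of Cdkn2d turned, and none passed there either (limma adjusted p = 0.567, 0.842 and 0.996).

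Rb1 encodes the retinoblastoma protein, the substrate of the D cyclin kinases. Its log2 ratios were -0.50, -0.57, -0.52 and -0.51 in aldosterone hearts 1, 2, 3 and 5, and -0.37, -0.59, -0.20, -0.43 and -0.72 in untreated hearts 1 to 5. The aldosterone hearts lay close together inside the wider range of the untreated hearts. The SD was 0.03 in aldosterone hearts (n = 4) and 0.20 in untreated hearts (n = 5), and in the value table of 10 hearts it was 0.05 in aldosterone hearts and 0.24 in untreated hearts (n = 5 each). This difference in spread was noticed in the data and was not tested. The probe was printed 10 times per array, with a median SD between spots of 0.0608. The means differed by -0.06 (95% interval -0.27 to 0.15, limma adjusted p = 0.999).

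**Figure D3:**
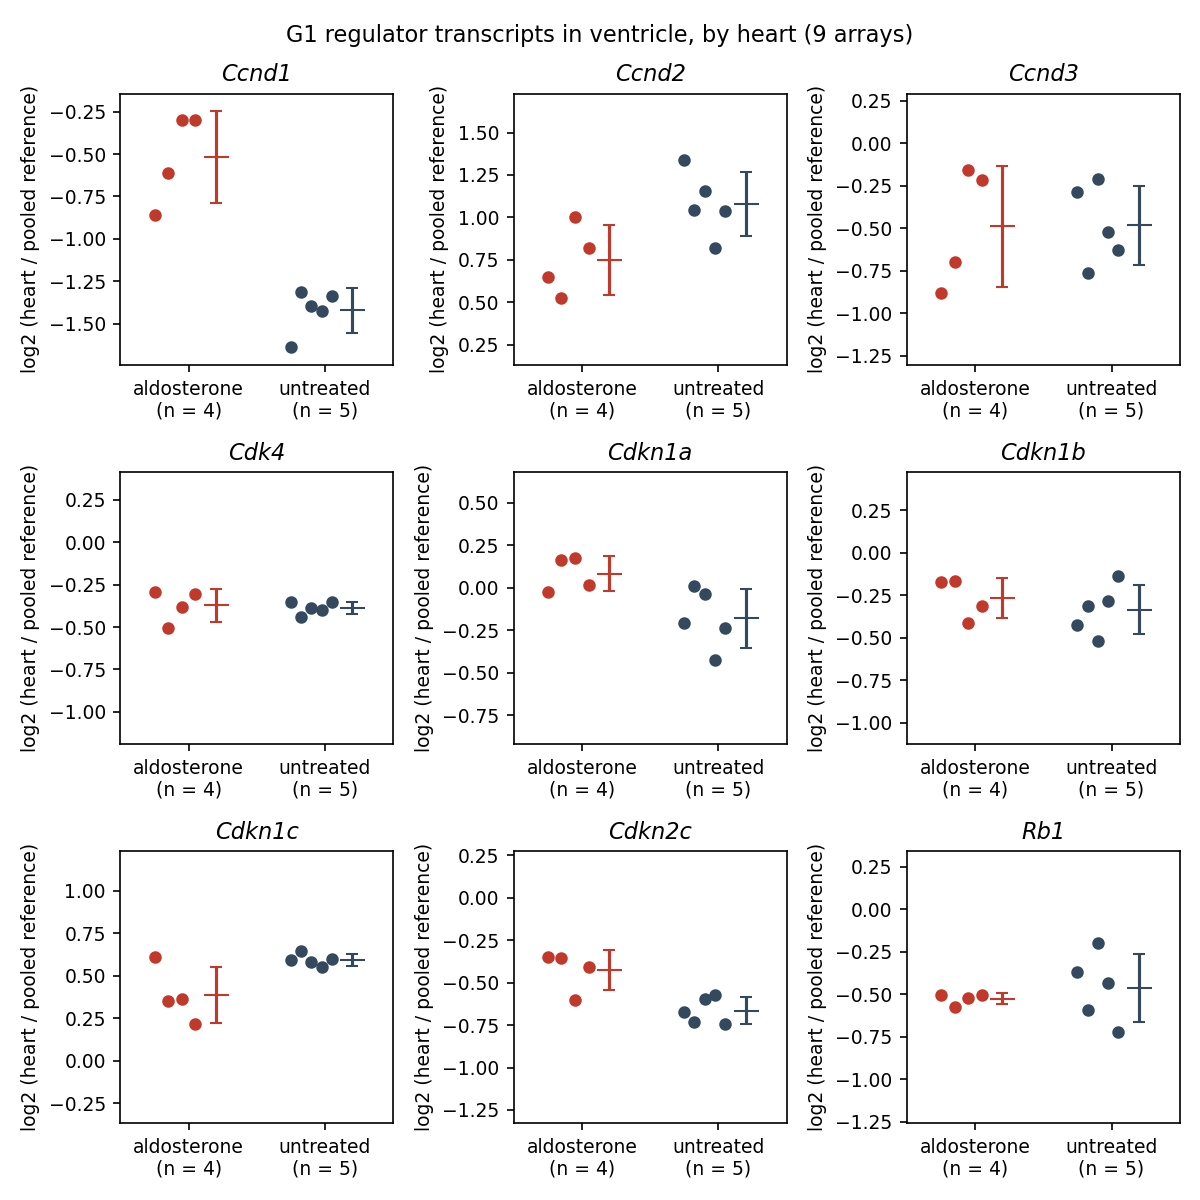
Log2 ratio of heart to pooled reference for 9 genes of the set on 9 arrays (the probe of highest signal for each gene), with each heart as a point and the mean ± SD as a bar, aldosterone (n = 4) left of untreated (n = 5). All panels span the same number of log2 units around different centres. The groups are apart for Ccnd1 (-0.86 to -0.30 against -1.64 to -1.31) and overlap for the other 8 genes.

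Over the set as a whole, 0 of the 8 measured genes other than Ccnd1 passed an adjusted p under 0.05 in limma on 9 arrays, where 0% of the 26877 tested probes passed. The smallest adjusted p over all probes was 0.113. At an unadjusted p under 0.05, and apart from Ccnd1, Cdkn1a and Cdkn2c were higher and Ccnd2 and Cdkn1c were lower. The same threshold was passed upward by 4.23% and downward by 2.03% of all genes, with 1 probe per gene. Smaller p-values were found for 1.13% of tested probes in the case of Cdkn2c, 2.29% for Ccnd2, 2.31% for Cdkn1a and 2.68% for Cdkn1c.

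With Ccnd1 included, 5 genes of the set were higher and 4 lower, with a median difference of 0.02, beside a median of 0.01 over all genes and 52.3% of all genes above 0. Ccnd1 was the only gene of the set whose groups did not overlap, which 2.03% of probes showed in either direction, and this was the property it was chosen for. Among probes of the value table of 10 hearts, 1.27% had every aldosterone heart above every untreated heart, as Ccnd1 did. In the value table of 10 hearts, 35 probes passed an adjusted p under 0.05, or 0.13% of those tested, and no probe of the other genes of the set was among them.

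**Figure D4:**
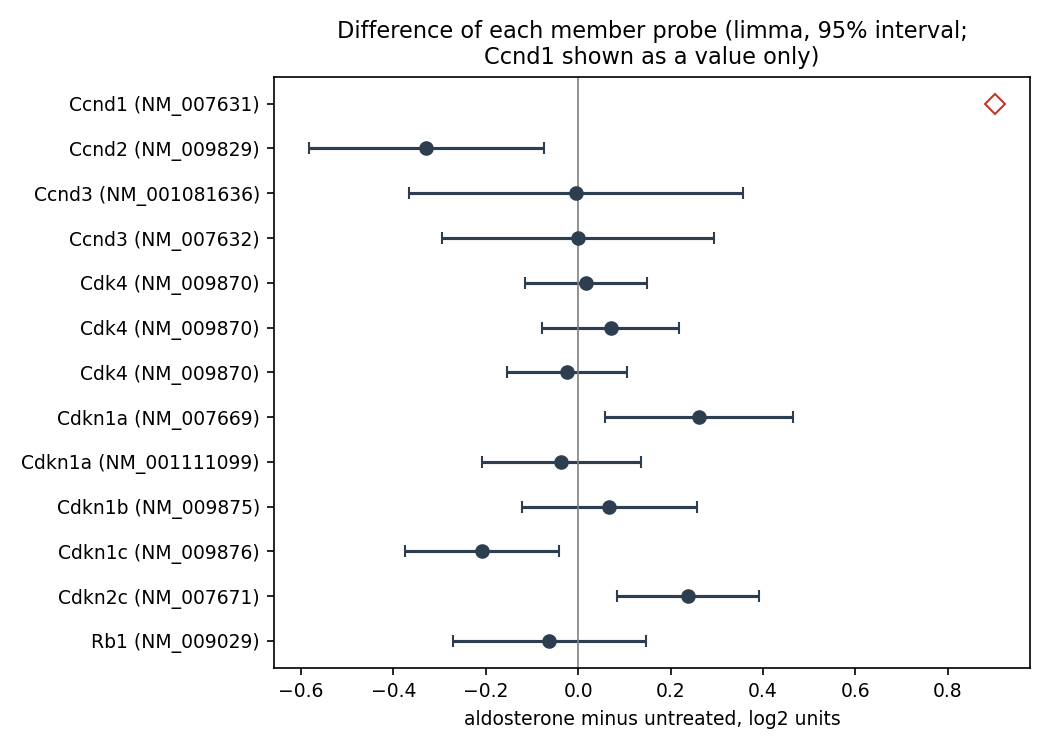
Difference between aldosterone and untreated hearts (log2 units, horizontal axis) for each of the 13 tested probes of the set, with points for the estimate and bars for the 95% interval of limma, and the Ccnd1 probe as an open diamond without an interval. The intervals of Ccnd2, Cdkn1a (NM_007669), Cdkn1c and Cdkn2c do not reach 0, but none of these passed adjustment over all probes, and the Cdk4 intervals are among the narrowest.

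Genes whose spread within the groups followed that of Ccnd1 most closely were described by the correlation of residuals from the group means over the 9 arrays, which share the reference pool and, within a slide, the scan. The highest were S100a1, a calcium-binding protein of cardiomyocytes, with r = 0.987, Tmc6 with 0.951, Rdh5 with 0.939 and Dnaaf1 with 0.938. The other 2 of the 6 highest were transcripts with no symbol here. These are the top of a ranking of 22016 genes or transcripts over only 9 arrays, so the selection alone makes them high, and they carry no test. Their group differences were small, with -0.05 for S100a1, -0.02 for Tmc6, 0.10 for Rdh5 and -0.03 for Dnaaf1. Because the group means were removed first, this ranking reflects only the spread between hearts of a group. It cannot show a likeness in the difference between groups. Within the set, the residual correlation with Ccnd1 was 0.50 for Ccnd3, 0.30 for Cdkn1a, 0.23 for Ccnd2, -0.57 for Cdkn2c and -0.69 for Cdkn1c, and it lay between -0.26 and -0.13 for Cdk4, Cdkn1b and Rb1. A higher correlation was found for 9.11% of all genes in the case of Ccnd3, 20.7% for Cdkn1a and 25.3% for Ccnd2, and for 95.8% in the case of Cdkn1c.

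The next steps of the G1 pathway were examined with gene lists, which were chosen with earlier results of these data known. Over all genes, with 1 probe per gene, 52.3% were higher and 4.23% were higher at an unadjusted p under 0.05. Cyclin A2 stood out from the cyclin E and CDK2 step. Ccna2, which is made as cells enter S phase, differed by 0.72 (SE 0.11, limma adjusted p = 0.119) on 9 arrays and by 1.11 in the value table of 10 hearts, where it passed (limma adjusted p = 0.0466). It no longer passed in that table without aldosterone heart 4. The kinase gene Cdk2 differed by -0.07 (SE 0.06), the cyclin gene Ccne1 by -0.06 (SE 0.12) and the phosphatase gene Cdc25a by -0.00 (SE 0.12). Ccne2 was too dim to be tested. Of the 4 measured genes of this list 1 was higher and 3 lower.

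Among other pocket proteins and E2F factors, 10 of 12 genes were higher and 2 lower, with a median difference of 0.12 on 9 arrays and 0.26 in the value table. The activating factors E2f2, E2f3 and E2f1 differed by 0.35 (SE 0.09), 0.19 (SE 0.06) and 0.21 (SE 0.07), with limma adjusted p-values of 0.428, 0.605 and 0.624. The pocket protein genes Rbl1 and Rbl2 differed by 0.09 (SE 0.12) and 0.03 (SE 0.09). The 3 genes of the kinase that activates CDKs, Cdk7, Mnat1 and Ccnh, differed by 0.11, 0.06 and 0.02, and none passed (limma adjusted p = 0.950, 0.991 and 0.999).

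E2F target genes were higher for 18 of 20 members, beside 52.3% of all genes, with a median difference of 0.08. Of the 20, 6 had an unadjusted p under 0.05, all higher, beside 4.23% of all genes that were higher at that threshold. The median was 0.16 in the value table. Uhrf1, which recruits the maintenance DNA methyltransferase, differed by 0.41 (SE 0.09), Rrm2, a subunit of ribonucleotide reductase, by 0.40 (SE 0.09), and Pcna, the sliding clamp of DNA polymerases, by 0.20 (SE 0.06). None passed (limma adjusted p = 0.246, 0.324 and 0.599). The mean of the list was -0.66, -0.71, -0.73 and -0.70 in aldosterone hearts 1, 2, 3 and 5, and -0.87, -0.82, -0.85, -0.85 and -0.75 in untreated hearts 1 to 5. The groups did not overlap, though untreated heart 5 came close to the aldosterone hearts.

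Markers of proliferating cells were higher as well. All 11 measured markers were higher, each at an unadjusted p under 0.05, beside 4.23% of all genes that were higher at that threshold. Their median difference was 0.39 on 9 arrays and 0.88 in the value table of 10 hearts, and Aurkb was too dim to be tested. The mitotic kinase gene Cdk1 differed by 0.47 (SE 0.08), Birc5, which acts in chromosome segregation, by 0.68 (SE 0.11) and Mki67, a nuclear marker of cycling cells, by 0.84 (SE 0.15), each with a limma adjusted p of 0.141. The value table of 10 hearts, where 0.13% of all tested probes passed, had 4 members that passed. Their differences were 1.54 for Bub1, 0.99 for Cdk1, 0.94 for Kif11 and 0.55 for Plk1. On the 9 arrays Bub1 differed by 0.17, Kif11 by 0.15 and Plk1 by 0.39, so the sizes for Bub1 and Kif11 rest on the source of the values. The probes of Bub1 and Kif11 were dim, with mean log2 signals over both channels of 6.35 and 6.56. The dim Cdkn1a probe had 6.31. Without aldosterone heart 4, Bub1 and Kif11 still passed in the value table, and Cdk1 and Plk1 did not. The mean of the list was -1.45, -1.60, -1.59 and -1.62 in aldosterone hearts 1, 2, 3 and 5, and -2.12, -2.09, -2.08, -1.92 and -1.76 in untreated hearts 1 to 5. The groups did not overlap.

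Within the groups, the order of hearts by these lists was not that by Ccnd1, most clearly among aldosterone hearts. Aldosterone heart 1 had the lowest Ccnd1 of its group and the highest mean of proliferation markers and of E2F targets. Untreated heart 5 had the highest list means of its group, and its Ccnd1 log2 ratio was -1.33, beside -1.31 for the highest untreated heart. In the authors' deposited value table untreated heart 5 had the highest Ccnd1 of its group, at -1.12. Untreated heart 1 had the lowest list means and the lowest Ccnd1 of its group. The ends of the untreated order therefore show no clear mismatch.

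**Figure D5:**
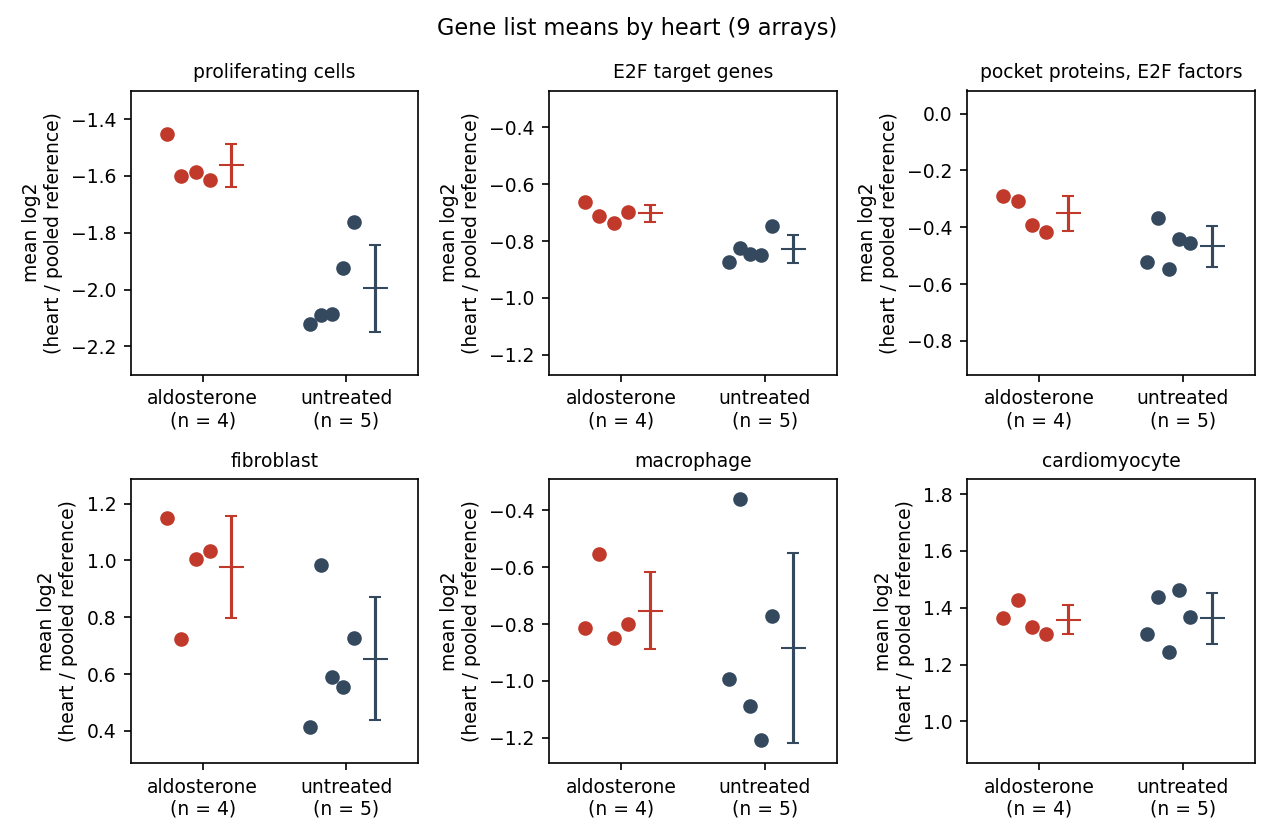
Mean log2 ratio to the pooled reference over each gene list per heart (points) with group mean ± SD (bars), aldosterone (n = 4) left of untreated (n = 5), 9 arrays. The groups are apart for proliferating cells and E2F target genes and overlap for pocket proteins and E2F factors and for fibroblast, macrophage and cardiomyocyte markers.

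Markers of other cell types of the heart were examined beside these lists. Of 15 fibroblast markers 14 were higher and 9 had an unadjusted p under 0.05, with a median difference of 0.38. Among all genes 52.3% were higher, and 4.23% were higher at that threshold. The filament gene Vim differed by 0.48 (SE 0.11), the procollagen processing enhancer Pcolce by 0.38 (SE 0.09) and the receptor gene Pdgfra by 0.28 (SE 0.07), and none passed (limma adjusted p = 0.277, 0.425 and 0.428). The list mean ran from 0.72 to 1.15 in aldosterone hearts and from 0.42 to 0.99 in untreated hearts, and all 15 markers passed the filter on dim probes. On the 9 arrays the untreated hearts had the same order by fibroblast mean and by Ccnd1, with hearts 2, 5, 3, 4 and 1 in falling order. The Ccnd1 values of the value table broke this match, with untreated hearts 5, 3, 4, 2 and 1 in falling order. Among aldosterone hearts, heart 1 had the highest fibroblast mean and the lowest Ccnd1, while heart 2 had the lowest fibroblast mean and a Ccnd1 below hearts 3 and 5. The part of fibroblast number in the Ccnd1 difference was not tested.

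The remaining cell types gave smaller medians or fewer markers. Macrophage markers were higher for 9 of 12 members with a median of 0.11 on 9 arrays and 0.21 in the value table, and their list mean ran from -0.85 to -0.55 in aldosterone hearts and from -1.21 to -0.36 in untreated hearts. Adgre1 differed by 0.42 (SE 0.19), Mrc1 by 0.26 (SE 0.15) and C1qb by 0.30 (SE 0.19). Red blood cell markers were higher for 5 of 7 with a median of 0.23, led by the heme synthesis gene Alas2 at 0.83 (SE 0.21), Hbb-b2 at 1.06 (SE 0.28) and Slc4a1 at 0.23 (SE 0.10). Adipocyte markers were lower for 8 of 9 with a median of -0.14 on 9 arrays and -0.51 in the value table, with Lipe at -0.27 (SE 0.06), Cfd at -0.99 (SE 0.29) and Plin4 at -0.16 (SE 0.09). Their part in the results was not tested.

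Endothelial markers were higher for 6 of 13, smooth muscle and pericyte markers for 5 of 11, cardiomyocyte markers for 5 of 13 and lymphocyte markers for 2 of 12. Their medians were -0.02, -0.01, -0.03 and -0.07. The endothelial genes of smallest p were Vwf at 0.32 (SE 0.13), Esam at 0.18 (SE 0.08) and Cdh5 at 0.15 (SE 0.09), and the cardiomyocyte genes were Tcap at -0.25 (SE 0.11), Myl2 at -0.13 (SE 0.10) and Myh6 at -0.14 (SE 0.11). Among smooth muscle and pericyte markers they were Cspg4 at 0.13 (SE 0.07), Mcam at -0.07 (SE 0.06) and Rgs5 at 0.07 (SE 0.08). Of the lymphocyte markers, Nkg7 differed by -0.08 (SE 0.06) and Lck by -0.12 (SE 0.11). No marker of these 8 cell types passed adjustment on 9 arrays or in the value table, the proliferation markers above apart.

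Lists of regulators upstream of the D cyclins and inhibitors had medians between -0.02 and 0.08. Of 20 measured transcription factors that act on D cyclin genes, 14 were higher and 6 lower with a median of 0.07. The list mean ran from -0.33 to -0.24 in aldosterone hearts and from -0.35 to -0.34 in untreated hearts, so the groups did not overlap, by a narrow gap. Mycn, a MYC family factor, differed by 0.41 (SE 0.08, limma adjusted p = 0.207). Its groups did not overlap, which 2.03% of probes showed in either direction, genes of other lists such as Vim and E2f2 among them. Jund and Fosl2, members of AP-1, differed by -0.16 (SE 0.09) and 0.11 (SE 0.06). Myc itself differed by 0.06 (SE 0.06). Of 13 measured p53 target genes 5 were higher and 8 lower with a median of -0.02, and among them the AKT inhibitor gene Phlda3 differed by 0.33 (SE 0.12), the cyclin G gene Ccng1 by 0.15 (SE 0.15) and the cell death gene Bbc3 by 0.07 (SE 0.08).

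A list of FOXO factors and quiescence genes, which also holds the factors of cycling cells Mybl2 and Foxm1, was higher for 8 of 14 with a median of 0.04. In it Lin54 differed by 0.13 (SE 0.07), Hexim1 by -0.15 (SE 0.10) and Mybl2 by 0.10 (SE 0.08). Genes for turnover and folding of these proteins were higher for 7 of 13 with a median of 0.00, where Cks2 differed by 0.15 (SE 0.07), Ambra1 by -0.07 (SE 0.07) and Cryab by -0.07 (SE 0.07). Corticosteroid receptor targets were higher for 9 of 12 with a median of 0.08, where Cebpd differed by 0.36 (SE 0.16), Tsc22d3 by 0.23 (SE 0.15) and Errfi1 by 0.29 (SE 0.20). No gene of these upstream lists passed adjustment on 9 arrays or in the value table of 10 hearts.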

How the data were processed

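Ventricle RNA of 10 male mice had been hybridised in Cy5 against a pooled Cy3 reference, per the labels' protocols. The deposited scanner files hold the spot intensity values of 9 arrays. The submitters' processing notes name Agilent Feature Extraction 10.7.3.1 as the reading software. Per the file headers, a log ratio column gives Cy5 over Cy3 in log10 units, and it was put in log2 units here. The authors' deposited value table gives a log2 ratio per probe for all 10 hearts. On the 9 arrays its slope against the scanner's log ratio was 1.00, with Pearson correlations of 0.996 or above and 82.7% to 86.6% of probes within 0.001. Scale and direction were therefore known. Its column medians were 0.04, 0.08, 0.11, -0.01 and 0.04 for aldosterone hearts 1 to 5 and 0.06, 0.06, 0.12, 0.02 and 0.02 for untreated hearts 1 to 5, and centring stays unknown.

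Median spot signals were used. Local backgrounds over 20 units from the array median were replaced by that median, since untreated array 1 had stray values up to 11739.5 units. Normexp correction (offset 50) and loess within arrays followed (R 4.3.3, limma 3.58.1), with control spots at weight 0 and 1667 outlier spots left out, 2 of them on probes of the set. Spots of a probe were averaged, from 43020 spots to 39429 probes. Accessions named 26581 probes through RefSeq records of GRCm38.p6. Probes well above background in Cy5 on at least 4 arrays were kept, which left 26877. Where 1 probe stood for a gene, it was the brightest over all arrays.

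Groups were compared with limma, two-sided, and p-values were adjusted by Benjamini-Hochberg across every kept probe, with a threshold of 0.05. The number of arrays limits the precision, and intervals are 95% intervals of the fit. All probes of the set were named, with up to 3 genes of smallest p from each list (1 of these is not reported here), and the 6 genes most like Ccnd1 over the arrays. The set, the lists and the treatment of stray backgrounds were chosen with earlier results of these data known. Adjusted values for a list alone, and tests of lists, were not made. On simulated data with 200 of 26832 probes changed, 67% of log2 changes of 0.5 were recovered, and 98% of those of 1. The simulated noise was independent between probes, whereas deviations over all kept probes correlated between hearts of different groups at -0.46 to 0.47. Changes below 0.5, such as the differences of Ccnd2, Cdkn1a, Cdkn1c and Cdkn2c, were not simulated. Slide and scan formed 1 batch with both groups on each of 4 slides. Replicate numbers did not mark shared animals, and deviations of same-numbered hearts correlated at 0.06, 0.34, 0.34 and -0.32, so the hearts were treated as unpaired. Alternatives changed background, normalization, channel, filter, probe choice, test, block, data source and replicates.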

Additional observations from a re-analysis of the deposited data

Results flagged for a closer look

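In the authors' deposited value table, the dimmest Cdk4 probe (A_55_P2166639) had a log2 ratio of 0.0225 in aldosterone heart 1, far from the other aldosterone hearts, which lay between 0.15 and 0.18. The untreated hearts lay between 0.10 and 0.32. On the 9 arrays the same heart was also the lowest of its group for this probe, at -0.32, against -0.17 to -0.14 in the other aldosterone hearts. Among 52 groups of values of the set that were examined, this was the 1 set apart, and chance sets apart about 1 in 20. The other Cdk4 probes had no such value in that heart.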

How the results depend on the processing

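Of the probes of the set, those of Ccnd1, Ccnd2, Cdkn1a (NM_007669), Cdkn1b, Cdkn1c and Cdkn2c kept their direction in all 38 alternatives. Their differences ranged from 0.83 to 1.02, -0.41 to -0.25, 0.17 to 0.31, 0.02 to 0.12, -0.28 to -0.15 and 0.18 to 0.31. Ccnd1 was chosen for its difference between these groups, so its constant direction is a description and lends it no support. The lowest adjusted p over the alternatives was 0.451 for Ccnd2, 0.431 for Cdkn1a, 0.733 for Cdkn1b, 0.310 for Cdkn1c and 0.361 for Cdkn2c, so no probe of the set with a test was called in any. The sign turned for probes near 0, and the cause was not tested. Ccnd3 (NM_001081636) was 0.00139 with Agilent processed signals and in the value table of 9 hearts, 0.000353 with median centring, 0.0191 from Cy5 alone and 0.0425 with array weights. Ccnd3 (NM_007632) was 0.00386 without background correction, 0.000188 with slide as a block and 0.00333 with the replicate block. Cdk4 was -0.0154 with backgrounds as scanned (A_55_P2163143), and -0.0344 (A_55_P1998188) and 0.0454 (A_55_P2166639) from Cy5 alone. Cdkn1a (NM_001111099) was 0.0227 with backgrounds as scanned and 0.0348 with processed signals and in the value table of 9 hearts. On leaving out each heart in turn, the ranges were -0.12 to 0.13 for Ccnd3 (NM_001081636), -0.16 to 0.12 for Ccnd3 (NM_007632), -0.00998 to 0.0610, -0.0120 to 0.0986 and -0.0703 to 0.0170 for the Cdk4 probes in the same order, -0.37 to 0.10 for Cdkn1a (NM_001111099) and -0.16 to 0.00312 for Rb1, which turned without untreated heart 3.

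Over all probes, 0 passed in the fit as reported, 8 with processed signals, 15 and 35 in the value table of 9 and 10 hearts, 3 with array weights and 2 with the replicate block. These last 2 were neither list genes nor tested probes of the set, and the replicate numbers do not pair the hearts. At an unadjusted p under 0.05 there were 1642 as reported, 849 with backgrounds as scanned and 1424 with slide as a block. Leaving out 1 heart gave 0 to 12 probes, with 12 without untreated heart 3 or 5, 2 without untreated heart 4 and 1 without aldosterone heart 1. In the value table of 10 hearts it gave 2 to 57, with 57 without untreated heart 5 and 2 without aldosterone heart 3. Of the list genes 0 passed as reported, 2 in the value table of 9 hearts (Bub1 and Kif11) and 5 in that of 10 hearts. Leaving out 1 heart gave 0 to 4, the 4 being Ccna2, Ccnb2, Cdk1 and Mki67 without untreated heart 5. The Cy5 signal over background limits Cdk6 and the dim Cdkn1a probe. Low signal also limits the list genes Bub1, Kif11, Cdkn2a and Cdkn2b.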
